A study of Bombyx mori with 12 samples.

Results

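The neuropeptide-like 4 family was followed in ovaries of Bombyx mori, the domestic silkworm, as 9 of the 15745 rows of the deposited expression table. Of these, 6 had been chosen by ID or name from earlier results on the same values, because their WT levels at P4 lay far under those at P2. The other 3 rows (BGIBMGA011715, BGIBMGA011717 and BGIBMGA011762) were added because their product text names neuropeptide-like 4. The family holds 1 row each for 4A (BGIBMGA011714, gene name BMORCPH27, whose product text also reads putative cuticle protein), 4C (BGIBMGA011718), 4D (BGIBMGA011762), 4E (BGIBMGA011764, gene name NPLP4) and 4F (BGIBMGA011769). It holds 4 rows for 4B (BGIBMGA011715, BGIBMGA011716, BGIBMGA011717 and BGIBMGA011763), which share a single protein entry in the product text.

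Ovary RNA was sequenced from TBH pupae at stage P4, TBH pupae at P2, WT pupae at P4 and WT pupae at P2, with 3 samples in each of the 4 groups. The series concerns female reproduction under hyperproteinemia, an excess of protein in the hemolymph, in a genetic model. The labels leave the abbreviation TBH unexplained, and they name no allele or promoter for the line. The labels name ovaries of 5 female pupae with n = 3, and nothing states whether pupae were pooled, so the tests read only the variation among these samples, which may be technical.

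Neuropeptide precursors are short secreted proteins that are cut into peptides acting on receptors of other cells. In Drosophila melanogaster, the neuropeptide-like precursor 4 gene was named after peptides found in the nervous system. In Bombyx mori, BMORCPH27 belongs to the cuticular proteins named CPH, secreted proteins assigned to the insect cuticle without the chitin-binding RR motif of the largest cuticle family. During the pupal stage the ovary grows its follicles, takes up yolk and then lays down the vitelline membrane and the eggshell.

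The values are a normalized signal whose unit is not named, so read depth is unknown and levels of different genes are not compared on a length scale here. Sample totals of the listed values ran from 468558.9 to 664133.6, and 6399 to 7772 genes were above 0. Replicates correlated across the tested genes, which are not independent, at 0.901 to 0.938 in TBH P4, 0.914 to 0.927 in TBH P2, 0.926 to 0.931 in WT P4 and 0.838 to 0.889 in WT P2. The least like the rest of their groups were TBH P4 replicate 3 and WT P2 replicate 2. Of all samples, WT P2 replicate 2 also had the highest total and the fewest genes above 0. Since 3 of the 45 genes named RPS or RPL, ribosomal proteins that every cell uses, were at 0 in all samples, a 0 is given only as listed at 0. VIG (vasa intronic protein) entered the ovary list through the word vasa, which does not show that it is particular to the ovary. It stood at 1749 ± 114 in TBH P4, 1919 ± 361 in TBH P2, 1843 ± 252 in WT P4 and 2125 ± 210 in WT P2 (mean ± SD, n = 3 each). The nanos gene NANOSO was listed at 0 in all 12 samples.

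The family was present at P2 and nearly absent from the listed values at P4, in both lines. Over the 9 rows and the 6 P4 samples, 3 of 54 values were above 0. The family sum was 0, 5.96 and 0 in TBH P4, against 1094, 968 and 910.4 in TBH P2. In WT ovaries it was 15.3, 0 and 0 at P4, against 607, 1658 and 663 at P2. The P4 and P2 samples did not overlap in either line. At P2 the sum was 0.182% ± 0.016 of all listed values in TBH and 0.172% ± 0.067 in WT (mean ± SD, n = 3 each). The RNA is of whole ovaries, so fewer cells of a type and less RNA per cell cannot be told apart.

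**Figure D1:**
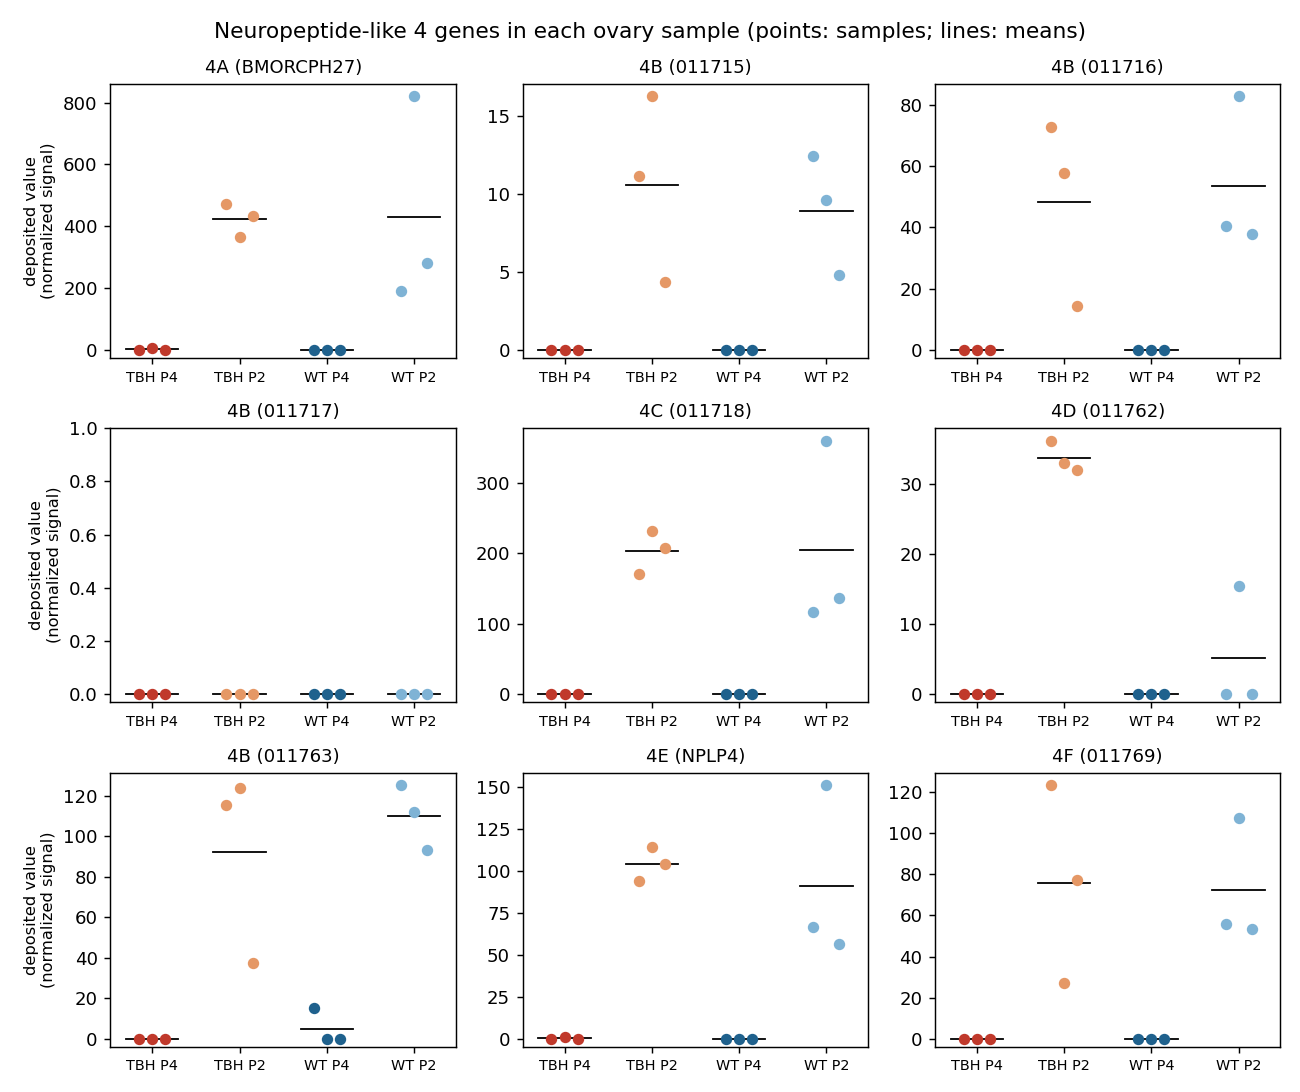
Deposited value (normalized signal, linear axis with its own range per panel) of each of the 9 neuropeptide-like 4 rows in the 12 ovary samples; points are samples, lines group means, and numbers in brackets end the gene ID. Values stand above 0 at P2 in 8 panels, except 4D at 0 in WT P2 replicates 1 and 3. At P4 only 3 values are above 0, the highest 15.3 for BGIBMGA011763 in WT P4 replicate 1. BGIBMGA011717 is at 0 throughout.

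**Figure D2:**
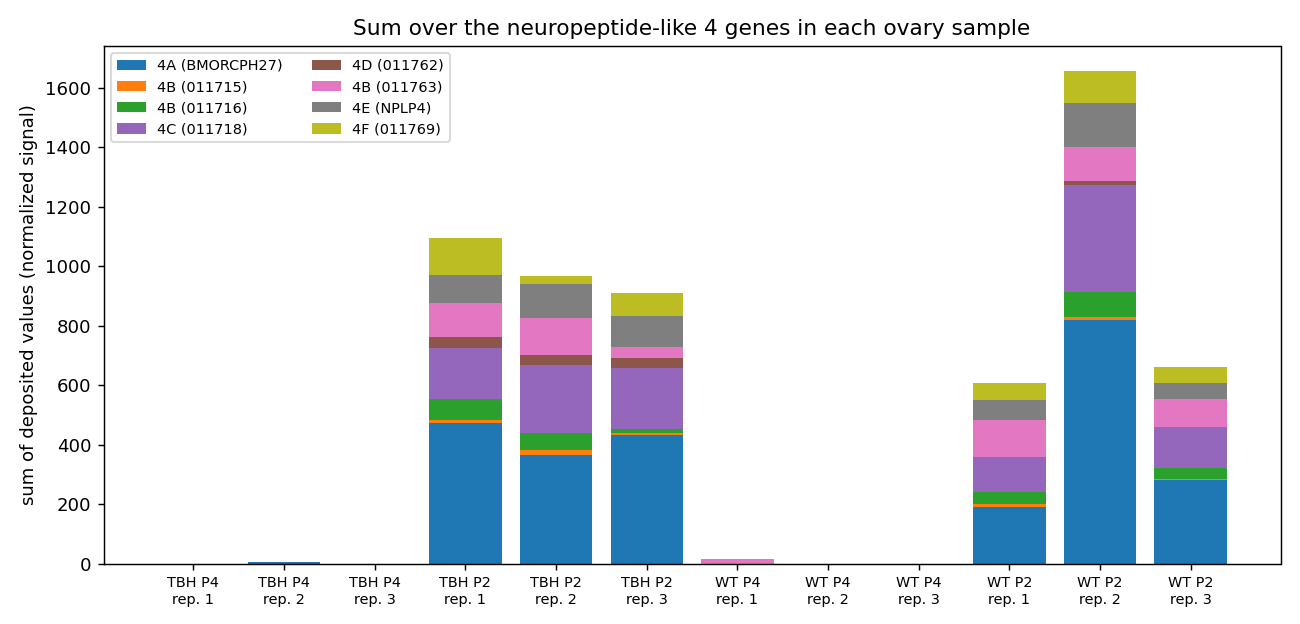
Stacked deposited values (normalized signal) of the family in each ovary sample, 1 bar per sample and 1 colour per member. The TBH P2 bars run from 910.4 to 1094 and the WT P2 bars from 607 to 1658, while the highest P4 bar is 15.3.

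The stage comparison in TBH samples is not the contrast that chose the 6 listed members. 4A (BMORCPH27) stood at 0, 5.12 and 0 in TBH P4, against 472, 365 and 434 in TBH P2. 4C (BGIBMGA011718) was listed at 0 in the 3 TBH P4 samples, against 170.4, 231 and 207 in TBH P2. All P2 values of both genes lay far above the P4 values, and the spread within TBH P2 was small, with the highest sample 1.29 times the lowest for 4A and 1.36 times for 4C. 4E (NPLP4) stood at 0, 0.84 and 0 in TBH P4, against 93.7, 114 and 104 in TBH P2, a range of 1.22 times at P2.

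In limma with Benjamini-Hochberg adjustment over 5235 genes, 4A fell by 7.85 ± 0.67 (SE) on the log2(value + 1) scale, with an adjusted p of 5.73e-05. 4C fell by 7.66 ± 0.38 (adjusted p = 1.46e-06), and 4E fell by 6.42 ± 0.40 (adjusted p = 6.05e-06). These log2 values depend on the pseudocount of 1, since the P4 samples were at or near 0, so no fold is given. Here and for the rows below, the genes passed the filter on low values through P2 samples alone. A difference from P4 was thus built into being tested, which limits what these adjusted p values show.

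The 4B rows were more uneven between TBH P2 samples. BGIBMGA011716 was listed at 0 in the TBH P4 samples, against 72.6, 57.6 and 14.3 in TBH P2. BGIBMGA011763 was likewise at 0 in TBH P4, against 115, 124 and 37.5 in TBH P2. BGIBMGA011715, the row with the lowest values, was at 0 in TBH P4 and at 11.2, 16.3 and 4.33 in TBH P2. In all 3 rows TBH P2 replicate 3 was the lowest of its group. Together the 4B rows came to 56.1 in that sample, against 199 and 198 in TBH P2 replicates 1 and 2. The fourth 4B row, BGIBMGA011717, was at 0 in all 12 samples and was not tested. In limma, BGIBMGA011716 fell by 5.34 ± 0.54 (adjusted p = 0.000223), BGIBMGA011763 fell by 6.36 ± 0.90 (adjusted p = 0.00282) and BGIBMGA011715 fell by 3.38 ± 0.47 (adjusted p = 0.00262).

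4F (BGIBMGA011769) was listed at 0 in TBH P4, against 123, 27.0 and 77.4 in TBH P2. Its lowest P2 sample was replicate 2, not replicate 3, and its highest was 4.57 times the lowest. It fell by 6.02 ± 0.50 (limma adjusted p = 4.82e-05). 4D (BGIBMGA011762) was listed at 0 in TBH P4, against 36.1, 33.0 and 32.0 in TBH P2, the tightest of the family with a range of 1.13 times. It fell by 5.12 ± 0.85 (limma adjusted p = 0.00879).

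Counted over the family, 8 of 9 rows fell, 0 rose and 1 could not be tested, where 1.34% of all tested genes fell and 0.363% rose. The median log2 change of all tested genes was -0.21. With quantile normalization, which sets this median to -0.01, 59.1% of the genes called were lower in place of 78.7%, and 8 members were lower as before. The 8 rows passed the filter on low values through their P2 samples alone, so a difference from P4 was built into being tested. Of the tested members, 6 were listed at 0 in all TBH P4 samples and above 0 in all TBH P2 samples, which held for 0.458% of the tested genes. Levels are uncertain for single rows, because family members with similar sequences may share reads, and their sequences were not compared here.

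**Figure D3:**
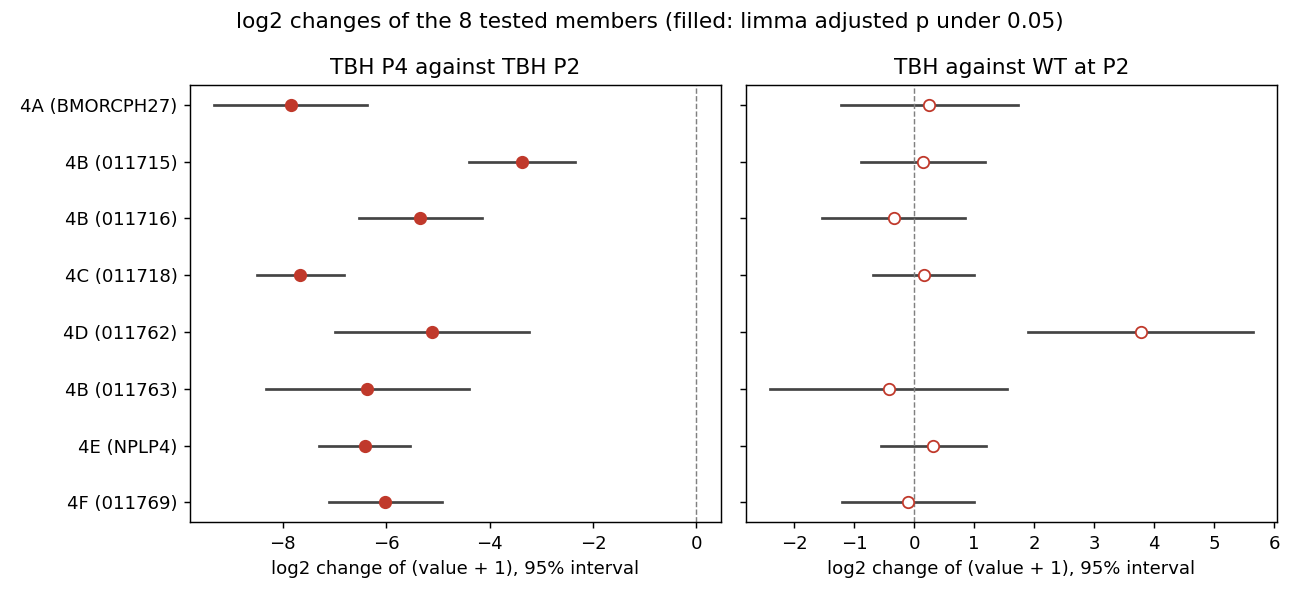
log2 change of (value + 1) with its 95% interval from limma for the 8 tested members, in TBH P4 against TBH P2 (left) and TBH against WT at P2 (right); filled points passed an adjusted p of 0.05. The stage changes lie between -7.85 and -3.38, and on the right 7 of 8 intervals cross 0, with 4D at 3.77.

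The WT values that chose the members are given as a description. 4A was at 0 in the 3 WT P4 samples, against 189, 820.7 and 280.2 in WT P2, and 4C was at 0 in WT P4, against 117, 359 and 137 in WT P2. 4E was at 0 in WT P4, against 66.4, 151 and 56.2 in WT P2, and 4F at 0 in WT P4, against 55.8, 108 and 53.6 in WT P2. BGIBMGA011716 was at 0 in WT P4, against 40.4, 82.8 and 37.7 in WT P2. WT P2 replicate 2 was the highest WT P2 sample for 6 of the 8 tested members.

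BGIBMGA011763 was the listed member with the smallest gap between the stages relative to its error, at 15.3, 0 and 0 in WT P4 against 125, 112 and 93.3 in WT P2. Of the rows added by product text, BGIBMGA011715 was at 0 in WT P4, against 12.4, 9.60 and 4.81 in WT P2. 4D, the 1 tested row that did not pass on this contrast, was at 0 in WT P4, against 0, 15.4 and 0 in WT P2, and its groups overlapped. By the rule applied to TBH, 7 of 9 rows were lower in WT P4, where 3.09% of tested genes were lower. Nothing is read from that share, because the WT values made the choice. The stage comparisons use separate samples, but the fit took its spread from all 12 samples. The errors and p values of the TBH comparison therefore also draw on the WT samples. Fitted on the TBH samples alone, 8 members were lower as before, with larger limma adjusted p values. These were 0.00949 for 4A, 0.000268 for 4C and 0.0347 for BGIBMGA011715.

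At P2 the question was whether the family differed with the line. For 7 of the 8 tested rows the TBH and WT samples overlapped. The share of all tested genes whose samples overlapped was not counted, so nothing is read from this number. 4A averaged 424 ± 54.1 in TBH and 430.1 ± 341 in WT (mean ± SD, n = 3 each). 4C averaged 203 ± 30.6 in TBH and 205 ± 134 in WT, and 4E averaged 104 ± 10.3 in TBH and 91.1 ± 51.9 in WT. The family sum averaged 991 ± 93.9 in TBH and 976 ± 591 in WT, or 635 in WT without replicate 2. The highest WT P2 sum was 2.73 times the lowest, while the totals of all listed values in these samples differed by 1.42 times.

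In limma the log2 change of TBH over WT at P2 was 0.26 for 4A (95% interval -1.22 to 1.73), 0.16 for 4C (-0.68 to 1.00) and 0.32 for 4E (-0.56 to 1.20). For the 4B rows it was 0.15 (-0.88 to 1.18, BGIBMGA011715), -0.34 (-1.53 to 0.85, BGIBMGA011716) and -0.42 (-2.39 to 1.55, BGIBMGA011763). 4F stood at a log2 change of -0.10 (-1.19 to 0.99). These intervals include differences of more than 1 log2 unit in at least 1 direction for every row, so similar levels in both lines are not shown. Their spread also draws on the P4 samples, which were mostly at 0, so they may be too narrow for P2. Of the 9 rows, 0 passed in limma with Benjamini-Hochberg adjustment, where 1.49% of tested genes passed. In limma 1 row was past an unadjusted p of 0.05, where 369 of the 5235 tested genes were. This comparison shares its WT P2 samples with the values that chose the listed members.

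4D (BGIBMGA011762), which was not among the listed members, was the row past an unadjusted p of 0.05. It stood at 36.1, 33.0 and 32.0 in TBH P2, against 0, 15.4 and 0 in WT P2. Every TBH sample lay above every WT sample, and the single WT value above 0 came from WT P2 replicate 2. With all P4 samples at 0, the row passed the filter on low values through its TBH P2 samples. A higher level in TBH P2 was thus built into its being tested, which limits what its order and p values show. With 3 samples against 3, the smallest exact permutation p is 0.1, so such an order alone is weak. The log2 change was 3.77 ± 0.85 (95% interval 1.90 to 5.64), and its limma adjusted p of 0.0592 missed the threshold. The fit took part of its spread from the P4 samples, where 4D was at 0 throughout, so this error may be too small for P2. Fitted on the P2 samples alone, the limma adjusted p was 0.466. Over 15 alternatives the adjusted p ran from 7.41e-06 to 0.466, and 4 of them called the row. Without WT P2 replicate 2, the log2 change was 5.12 and the limma adjusted p 7.41e-06. With both remaining WT P2 samples listed at 0 the change then depends on the pseudocount.

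Ratios within a sample set the members against each other without regard to the total. They carry unknown length scales, so only their change between samples is read. The ratio of 4E to 4C was 0.55, 0.49 and 0.50 in TBH P2, against 0.57, 0.42 and 0.41 in WT P2. The ratio of 4C to 4A was 0.36, 0.63 and 0.48 in TBH P2, against 0.62, 0.44 and 0.49 in WT P2. Both pairs kept their ratio within a factor of 2 over all P2 samples, WT P2 replicate 2 included. How many other pairs of genes did so was not counted, so nothing is read from this. The 4D ratio to 4C was 0.21, 0.14 and 0.15 in TBH P2, against 0, 0.043 and 0 in WT P2, without overlap. These ratios reuse the 4D values given above. The summed 4B rows were less even, at 1.17, 0.86 and 0.27 of 4C in TBH P2 and at 1.52, 0.57 and 0.99 in WT P2. For 4F the ratio to 4C was 0.72, 0.12 and 0.37 in TBH P2, against 0.48, 0.30 and 0.39 in WT P2.

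**Figure D4:**
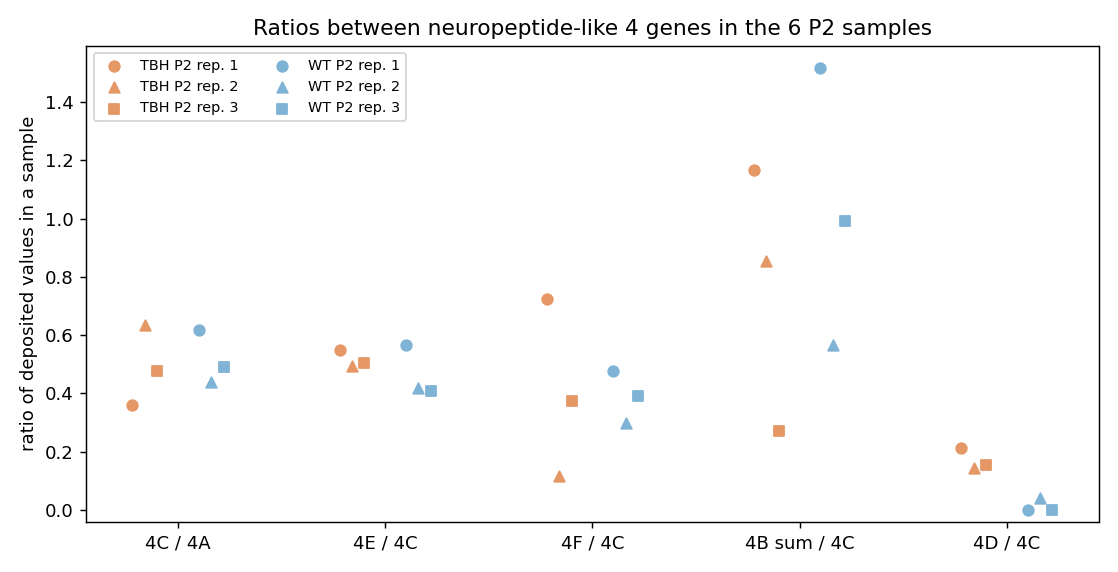
Ratios of deposited values between family members in the 3 TBH P2 and 3 WT P2 samples, with 1 marker shape per replicate number. The 4E to 4C ratios lie between 0.41 and 0.57, and the 4D to 4C ratios are 0.14 to 0.21 in TBH against 0 to 0.043 in WT.

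At P4 almost no signal was left to compare between the lines. TBH P4 replicate 2 held 4A at 5.12 and 4E at 0.84, WT P4 replicate 1 held BGIBMGA011763 at 15.3, and every other P4 value of the family was 0. In limma, 0 of the 9 rows passed, where 1.93% of tested genes passed. Past an unadjusted limma p of 0.05 were 0 rows, against 614 of the 5235 tested genes. The change of the line effect between the stages passed in limma for 0 members, where 0.287% of tested genes passed. Past an unadjusted limma p of 0.05 were 269 of the 5235 tested genes, 1 member among them. That member was 4D, at -3.77 ± 1.20 on the log2 scale (limma adjusted p = 0.606). It passed the filter through its TBH P2 samples, which limits this value as well. Without WT P2 replicate 2, 1 member passed. This change contains the WT contrast that chose the listed members and is a description for them.

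The members fall into a pair of runs of gene model numbers, BGIBMGA011714 to BGIBMGA011718 and BGIBMGA011762 to BGIBMGA011769. Of the 56 models numbered from the first to the last member, 9 are members and 19 carry CPH names. The files give no coordinates. By symbol, 1 member (CPH27) matched the RefSeq table of assembly ASM3026992v2. In it CPH27 is the first of 23 CPH genes that lie in a run of 29 genes, with CPH26 as its nearest protein-coding neighbour on one side. All 19 CPH genes named above lie in that run.

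The 19 CPH genes numbered between the members had low listed values. Of the 19, 7 did not reach a value of 1 in any sample and 7 were tested, of which 1 fell and 0 rose in TBH P4 against TBH P2. Their highest value in any sample was 2.10 in TBH P4, 11.7 in TBH P2, 2.60 in WT P4 and 42.2 in WT P2. Of the 167 models numbered within 60 of a member, 68 were tested, 2 fell and 1 rose. The CPH gene that fell was BMORCPH23 (BGIBMGA011719), numbered next to 4C, which was at 0 in TBH P4, against 7.11 ± 4.09 in TBH P2 (limma adjusted p = 0.00879). Like the members, it passed the filter on low values through P2 samples alone, so a difference from P4 was built into being tested. CPG43 (BGIBMGA011713), a glycine-rich cuticle protein numbered next to 4A, stood at 0, 21.7 and 5.92 in TBH P4, against 2754, 2136 and 2305 in TBH P2. It fell by 8.79 ± 1.10 on the log2 scale (limma adjusted p = 0.00109). In WT P2, CPG43 stood at 2257, 5001 and 1780, so WT P2 replicate 2 was high for it as for the family.

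**Figure D5:**
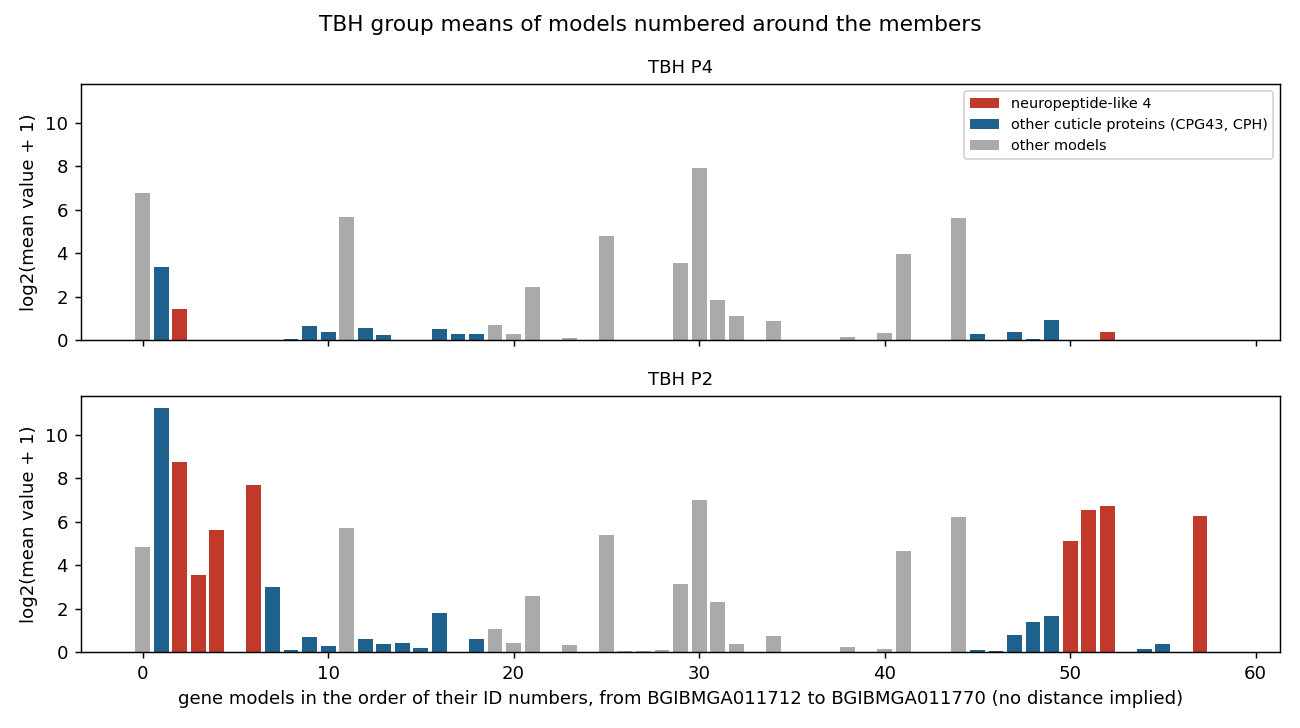
log2(mean value + 1) in TBH P4 (top) and TBH P2 (bottom) for gene models in the order of their ID numbers; red bars are the family, blue bars CPG43 and CPH genes, grey bars other models. At P2 the red bars stand in a group at each end of the range, and at P4 the red and the tall blue bar are low while grey bars stay.

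The table holds 67 cuticle proteins without the RR motif, the CPH genes above and CPG43 among them, of which 23 were tested, 3 fell and 0 rose in TBH P4 against TBH P2. The third, beside CPG43 and BMORCPH23, was BMORCPH1, at 0, 1.24 and 0 in TBH P4 against 7.37, 21.7 and 10.4 in TBH P2 (limma adjusted p = 0.00297). The median log2 change of the list was -0.77, against -0.21 for all tested genes. Of the RR cuticle proteins, 22 of 108 were tested, 0 fell and 2 rose, with a median of 0.29. BMORCPR26 stood at 8.08, 7.35 and 17.8 in TBH P4 against 0, 1.01 and 0 in TBH P2 (limma adjusted p = 0.00485). BMORCPR49 stood at 5.21, 4.49 and 2 in TBH P4 against 0, 0 and 0.87 in TBH P2 (limma adjusted p = 0.0163). It passed the filter on low values through the TBH P4 samples alone, so a rise was built into its being tested. For TBH against WT at P2, 0 genes of either cuticle list passed in limma. Of the 2 chitin rows 1 was tested, the chitinase-like IDGF, at 10.9 ± 7.23 in TBH P4 against 58.9 ± 20.5 in TBH P2, and it did not pass (limma adjusted p = 0.0943).

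Other neuropeptides and peptide hormones, as far as the words searched found them, had little signal in these ovaries. The search did not take in BMPP, a cytokine precursor described below. Of 25 rows outside the family, 10 were at 0 in all samples and 2 were tested. Of these, 0 passed in limma in any of the 4 comparisons of groups. The row with the highest mean, a putative neuropeptide precursor (BGIBMGA008978), stood at 1.94 ± 0.31 in TBH P4 and 3.52 ± 0.78 in TBH P2, and at 3.65 ± 0.28 in WT P4 and 5.18 ± 0.33 in WT P2. PBURS, the partner of bursicon, a hormone of cuticle hardening, stood at 0.34, 0 and 0 in TBH P4 and at 0, 0.34 and 1.40 in TBH P2. Genes of prohormone processing had 0 matches in the table's text.

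Markers of other tissues were measured beside the family. The nervous system list has 3 rows in the table, and its summed level was 0.70 to 1.17 in TBH P4 and 4.05 to 6.44 in TBH P2, and 0 to 0.47 in WT P4 and 1.51 to 6.49 in WT P2. The acetylcholine receptor subunit ACHRA7 made up most of it in TBH P2, at 5.18 ± 1.37. SYTI, synaptotagmin of the synapse, was at or near 0. ACHRA7 was the 1 gene tested, and it did not pass for TBH P4 against TBH P2 (limma adjusted p = 0.143). The epidermis, trachea and cuticle list of 178 rows summed to 1673 to 3045 in TBH P4 and 7430 to 8378 in TBH P2, and to 1858 to 4175 in WT P4 and 5003 to 16190 in WT P2. CPG43 and CPH44 (BGIBMGA005303) carried most of it, and of its 47 tested genes 3 fell and 2 rose in TBH P4 against TBH P2.

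The 2 hemocyte rows summed to 21.4 to 24.9 in TBH P4 and 44.6 to 65.1 in TBH P2, with hemocytin listed at 0, and to 40.2 to 44.6 in WT P4 and 23.2 to 54.9 in WT P2. The 14 fat body and hemolymph rows summed to 120.3 to 239 in TBH P4 and 123 to 268 in TBH P2, and to 91.0 to 150.2 in WT P4 and 87.1 to 246 in WT P2. The 3 muscle rows summed to 503 to 788 in TBH P4 and 281 to 401 in TBH P2, and to 851 to 1283 in WT P4 and 248 to 553 in WT P2. Of 14 fat body rows 8 were tested and 3 fell, led by 30K protein 12 (BGIBMGA010876), a hemolymph protein, at 2.41 ± 2.42 in TBH P4 against 28.5 ± 5.69 in TBH P2 (limma adjusted p = 0.00576). Of 8 ovary rows 4 were tested and 1 rose, the vitelline membrane protein VMP23 (BGIBMGA006755), at 449 ± 51.8 in TBH P4 against 4.87 ± 1.69 in TBH P2 (limma adjusted p = 1.46e-06). In the muscle and hemocyte lists 0 of 1 tested gene each passed in limma for TBH P4 against TBH P2. The sums of the nervous system and cuticle lists lay lower at P4 than at P2 in both lines without overlap, as those of the family did. The RR proteins within the cuticle list went the other way in TBH, at 87.0 to 97.5 at P4 against 59.7 to 64.1 at P2. Sums of the chitin list and of models numbered near a member also fell without overlap in both lines. The share of all genes that did so was not counted, so no tissue is read from these sums. The part of these lists in the family's stage change was not tested.

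Likeness to the family was measured as Pearson's r between log2(value + 1) of a gene and of the family sum over the 12 samples, as a description. The samples split by stage, so r follows that split, and 47 of 5227 other genes had an r over 0.9. The 5 genes most alike had r from 0.965 to 0.975, and BMPP, the precursor of the insect cytokine paralytic peptide, was the one with a name. It stood at 0.79 ± 0.44 in TBH P4 and 47.4 ± 12.1 in TBH P2, and at 0.81 ± 1.21 in WT P4 and 25.5 ± 8.32 in WT P2. BGIBMGA003688, without a name in the table, ranked first, at 3.90 ± 2.14 in TBH P4 and 31.7 ± 4.18 in TBH P2, and at 3.92 ± 0.09 in WT P4 and 37.3 ± 5.29 in WT P2.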

How the data were processed

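The authors deposited 1 table of normalized signal, with a row per gene and a column for each of 12 samples. Its 4 columns of group means were not used. Per the submitters' processing notes, Cufflinks and DESeq2 were used, without versions or roles. No source used here names the unit, aligner, counting, build or annotation, so depth is unknown and no counting interval is given. Values were used as log2(value + 1), for the 5235 genes that reached 1 in 3 samples or more. A count model was planned for the case of counts, which these values are not. A model with 1 mean per group over all 12 samples was fitted with limma 3.58.1 in R 4.3.3 (moderated, with a mean-variance trend). Benjamini-Hochberg adjustment covered every gene tested, and an adjusted p under 0.05 was called. The fit was tested on simulated data with normal noise of equal spread in all groups of a gene. That setting does not cover rows with P4 samples at 0 and uneven P2 samples, such as the members. The family sum has no test.

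Members and gene lists were chosen with earlier results of these data known. The rule for named genes took all members, the 5 genes most like the family sum, and, per list and comparison, up to 3 genes past the threshold or the 2 with the highest mean. Of the 5, the 3 others without a gene name are given only by their range of r, and genes for comparisons other than TBH P4 against TBH P2 are given in part. Lists were matched by name and product text. The alternatives tried were scaling, filter, trend, pseudocount, sample weights, the groups fitted, a replicate block and leaving out samples. No sequences of the members were used here.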

Additional observations from a re-analysis of the deposited data

How the results depend on the processing

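The count of members that fell in TBH P4 against TBH P2 was 6 to 8 over 16 alternatives, against 8, and 6 only where a mean of at least 10 left 6 members to test. The count lower in WT P4 against WT P2 was 6 to 7, against 7, and 0 members passed for TBH against WT at P4 in all 16. For TBH against WT at P2 the count was 1 in place of 0 with equal totals, with sample weights and without WT P2 replicate 2, and 1 also without WT P2 replicate 2 and TBH P4 replicate 3 together, a setting chosen after seeing the data. The member was 4D, at log2 changes of 3.88, 4.63, 5.12 and 5.12. For the change of the line effect the count was 1 in place of 0 with sample weights and without those samples together, and 0 to 1 when single samples were left out.

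The small log2 changes of TBH against WT at P2 turned sign in places, without any call. Without WT P2 replicate 1, 4A stood at -0.19 and 4C at -0.14, and without WT P2 replicate 3, 4C stood at -0.030 and BGIBMGA011715 at -0.20. Without WT P2 replicate 2, alone or with TBH P4 replicate 3, BGIBMGA011716 stood at 0.016 and 4F at 0.22. Without TBH P2 replicate 2, BGIBMGA011715 stood at -0.22 and 4F at 0.50, and without TBH P2 replicate 3, BGIBMGA011716 stood at 0.36 and BGIBMGA011763 at 0.13. Over the settings that left out 1 sample, the change ran from -0.19 to 0.87 for 4A, -0.22 to 0.63 for BGIBMGA011715, -0.77 to 0.36 for BGIBMGA011716, -0.14 to 0.66 for 4C, -0.72 to 0.13 for BGIBMGA011763 and -0.57 to 0.50 for 4F. The cause was not tested.

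Calls over all genes ran from 54 to 933 for TBH P4 against P2 (89 as reported), 21 to 137 for TBH against WT at P2 (78), 51 to 459 at P4 (101), 72 to 1190 for WT P4 against P2 (215) and 4 to 33 for the change of the line effect (15). The first was 933 with sample weights, 55 without TBH P4 replicate 1, 55 without TBH P2 replicate 1 and 54 without TBH P2 replicate 2. Same-numbered samples did not deviate together (r from -0.176 to 0.065, with 0 of 3 pairs over 0.1 in each comparison, and 1 to 3 of 6 samples closest to their own number). With the replicate block, the members called stayed at 8 and 0 for TBH P4 against P2 and TBH against WT at P2, 0 at P4, 7 for WT P4 against P2 and 0 for the change of the line effect, while all genes called were 141 in WT P4 against P2 and 8 for the change of the line effect.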

Other observations

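Among the CPH genes numbered between the members, the summed level was 2.82 to 5.68 in TBH P4 and 11.3 to 23.1 in TBH P2, and 5.02 to 8.58 in WT P4 and 12.9 to 111 in WT P2. The high WT P2 sum came with BMORCPH12 (BGIBMGA011728), which reached 42.2 in WT P2 replicate 2 and stood at 2.46 ± 1.99 in TBH P2 and 14.3 ± 24.2 in WT P2 (mean ± SD, n = 3 each). BGIBMGA011712, which has no product text and is numbered next to CPG43, went the other way from the family. It stood at 108 ± 19.0 in TBH P4 against 27.2 ± 3.28 in TBH P2 (limma adjusted p = 0.0162), and at 87.5 ± 49.1 in WT P4 against 18.8 ± 6.28 in WT P2 (limma adjusted p = 0.00598).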
